A study of Mus musculus with 4 samples.

Results

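Solute carriers are the membrane proteins that move sugars, amino acids, ions, metals, vitamins, nucleotides and drugs across the plasma membrane and the membranes of organelles, and their genes carry the Slc symbol followed by a family number. Their transcripts were followed in embryonic mouse kidneys in which Sall1, a zinc finger transcription factor gene of the nephron progenitors, had been deleted. The genes were chosen by symbol and detection: every gene whose probe accession maps to Slc plus a digit, with a probe well above background on all 4 arrays, and for each gene the probe with the highest mean signal. Of 371 such genes with a probe, 257 met this rule, among 29623 genes and unnamed probes tested in all. They belong to 50 of the 51 Slc families on the array. The rule uses detection and mean signal, while the choice of this class and of the lists by site below was made with earlier results of these data known.

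Total RNA of whole kidneys at E13.5 was measured on one-colour arrays, 24 hours after tamoxifen at E12.5, with 2 arrays per genotype, control and Sall1 knockout. Every sample came from the hybrid of 129 and C57BL/6, and the sample descriptions name tamoxifen treatment for both groups. The line is called Sall1CreER, a tamoxifen-dependent Cre recombinase. Only the knockout titles carry the word CreER, whereas the control titles carry flox, so that an effect of CreER and of the loss of Sall1 cannot be told apart. Whether a sample was 1 embryo or a pool is not given, and the spread behind the p-values may therefore be technical.

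A gene at the edge of the detection rule carried little signal. The dimmest Slc genes inside it, Slc25a34 and Slc5a4a, had mean signals of 24.3 and 24.6, where the lowest signal well above background was between 13.6 and 18.1 on the 4 arrays. Just outside, Slc25a53 and Slc2a9 were above background on 3 arrays with mean signals of 39.3 and 29.3. Symbol matching also brought in genes whose products carry no solute: Slc9a3r1 and Slc9a3r2 encode PDZ scaffolds that bind transporters, Slc4a1ap and Slc7a6os are named after a partner or a neighbour, and Slc22a13b is listed as a transcribed pseudogene.

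In the kidney these proteins divide by cell. Progenitors and other growing cells import glucose, amino acids, folate and ions. The later proximal tubule reclaims glucose, amino acids and phosphate through carriers of its brush border, and takes up organic anions and cations from the blood side for excretion. Mature tubules are still scarce at this stage. In whole-kidney RNA, fewer cells of a type and less RNA per cell cannot be told apart.

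The arrays themselves showed the tissue and the labels as follows. The 6 nephron progenitor and the 6 ureteric bud markers examined were well above background on all 4 arrays. Sall1 differed by -0.75 ± 0.059 on the log2 scale (SE, knockout minus control, n = 2 per group, adjusted p = 0.164 in limma), with no overlap. Whether its probe lies in the deleted part is not given. Between 60.6% and 64.2% of spots were well above background on each array, and no probe of an Slc gene was saturated.

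Across the whole class, most carriers barely differed between the groups. The median log2 difference over the 257 genes was 0.0039, beside -0.012 over all features tested, and 183 of them lay within 0.2 of zero (71.2%, beside 74.2% of all features). The range ran from -0.71 for Slc7a7 to 1.03 for Slc27a2. At an adjusted p under 0.05, limma called 0 Slc genes, beside 0% of all features, with a smallest adjusted p of 0.164. A variance prior that follows the signal called 3 genes lower, Slc7a7, Slc16a6 and Slc12a2 (background 0.554%, and 0.768% of named genes above background on all 4 arrays), and 0 higher (background 0.486%, and 0.788% of those named genes); normexp background correction called 1 lower.

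At an unadjusted p under 0.05, 25 Slc genes were higher (9.73%, background 6.27%) and 21 lower (8.17%, background 5.63%). Among named genes above background on all 4 arrays, as these are by rule, the background was 7.34% higher and 5.06% lower. These counts were not stable: median centring gave 12 higher, no background filter gave 11 higher and 12 lower, and leaving out each array in turn gave 13 to 21 higher and 9 to 14 lower. The lowest were 13 higher without control replicate 1 or Sall1 knockout replicate 2 and 9 lower without control replicate 2. Separation by at least 1.5-fold, with the 2 groups not overlapping, was seen for 4 genes higher, Slc27a2, Slc6a15, Slc7a10 and Slc14a1 (1.56%, background 2.46%), and for 3 lower, Slc7a7, Slc16a6 and Slc7a9 (1.17%, background 1.17%). Among named genes above background on all 4 arrays these backgrounds were 2.37% and 0.665%. The shares lie near the background. With normexp background correction the first count was 1. Without control replicate 1 it was 7, without control replicate 2 it was 11 and without Sall1 knockout replicate 2 it was 10, since overlap is less frequent when 1 array stands for a group. Whatever the fold, 72 genes were higher without overlap (28.0%, background 21.2%), 64 were lower without overlap (24.9%, background 26.7%) and 121 overlapped. Without overlap in either direction the background was 47.9%. Among named genes above background on all 4 arrays these backgrounds were 24.3% higher, 28.4% lower and 52.7% in either direction, beside 52.9% of the Slc genes.

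**Figure D1:**
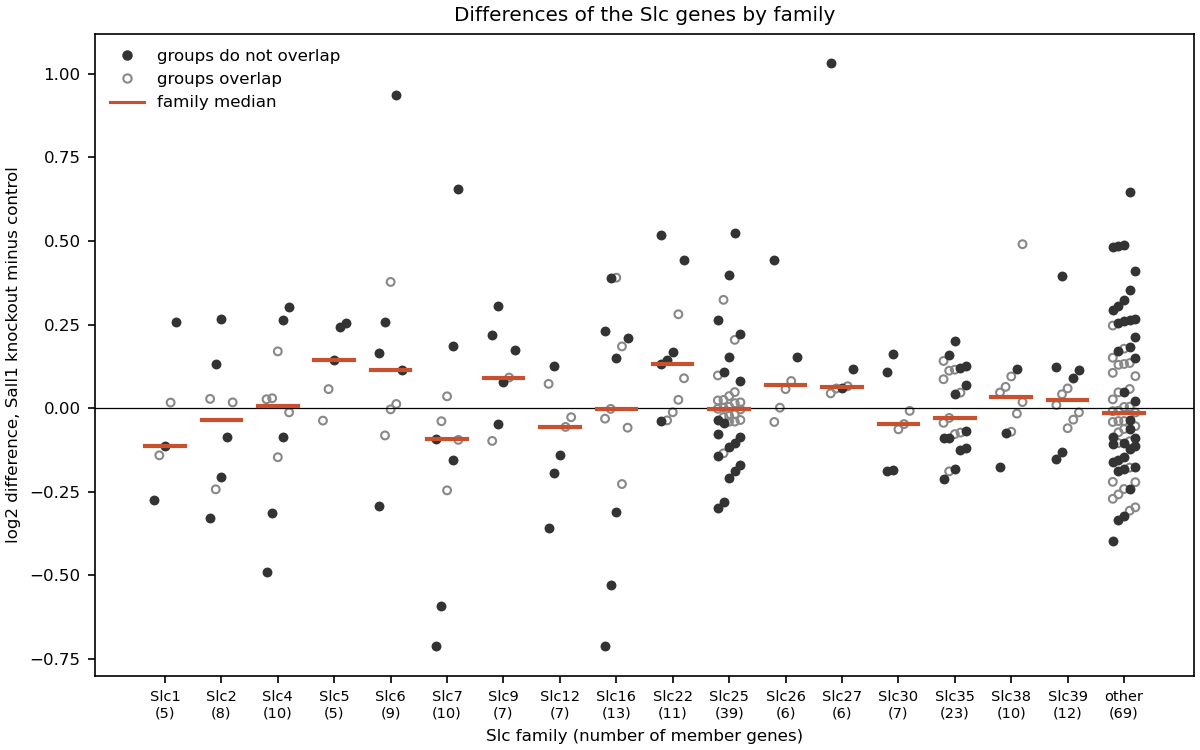
Log2 difference (knockout minus control) of each of the 257 Slc genes, one column per family with at least 5 members and 1 for all others. Filled points have groups that do not overlap, open points overlap, and the bar is the family median; the family medians lie between -0.11 and 0.14, while single genes reach -0.71 and 1.03.

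Amino acid exchangers of the Slc7 family included 2 of the 3 carriers that were at least 1.5-fold lower without overlap. Slc7a7 encodes a light chain that exports cationic amino acids at the basolateral membrane. Its log2 signal, scaled to each array's 75th percentile, was 1.58 and 1.55 on the control arrays against 0.89 and 0.82 after knockout. The knockout kidneys were thus 1.64-fold lower, a log2 difference of -0.71 ± 0.063 (SE, n = 2 per group, adjusted p = 0.164 in limma, 0.00246 with the prior that follows the signal). Slc7a9, the light chain of the brush border cystine exchanger, read -3.27 and -3.37 on the control arrays against -3.79 and -4.04 after knockout, 1.51-fold lower (adjusted p = 0.295). Both genes were lower in both knockout arrays, Slc7a7 at a signal of 926 to 1800 and Slc7a9 at 31.8 to 62.2, close to background.

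The heavy chains that carry these light chains to the membrane were examined beside them. Slc3a2, the partner of Slc7a7, read 3.40 and 3.64 on the control arrays against 3.43 and 3.54 after knockout, with overlapping groups (-0.039 ± 0.11). Slc3a1, the partner of Slc7a9, was above background on 3 arrays and is not among the 257 genes. Of the other Slc7 genes, Slc7a10, which exchanges small neutral amino acids, was 1.58-fold higher (adjusted p = 0.441), resting mainly on Sall1 knockout replicate 1. Its log2 signals were -4.47 and -4.57 on the control arrays against -3.53 and -4.20 after knockout. Slc7a1, an importer of arginine and lysine, was lower without overlap by -0.15 ± 0.062, and Slc7a5, the large neutral amino acid exchanger, differed by 0.035 ± 0.11 with overlap. Over the 10 Slc7 genes the median was -0.093, with 2 higher and 4 lower without overlap. The shares over all features were 21.2% higher and 26.7% lower, so these counts set the family little apart.

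Other amino acid carriers were higher or lower by smaller amounts, apart from Slc6a15. Slc6a15, a carrier of branched-chain amino acids and proline best known from neurons, was 1.92-fold higher (0.94 ± 0.18, adjusted p = 0.295). Its signals were dim, 19.2 and 22.5 on the control arrays against 33.4 and 40.3 after knockout. Slc6a6, the taurine carrier, read 2.06 and 2.02 on the control arrays against 1.73 and 1.76 after knockout, 1.23-fold lower (adjusted p = 0.311). Slc38a1, a sodium-coupled importer of glutamine, was 1.13-fold lower without overlap and Slc38a2, its paralogue, differed by 0.047 ± 0.073 with overlap. The other probes of Slc38a1 differed by only -0.067 and -0.030. Slc1a3, a glutamate carrier, was 1.19-fold higher. The medians were 0.11 over 9 Slc6 genes, 0.032 over 10 Slc38 genes and -0.11 over 5 Slc1 genes.

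The monocarboxylate carriers of the Slc16 family, which move lactate, ketone bodies and related molecules, held genes on both sides. Slc16a6 read 2.28 and 2.32 on the control arrays against 1.57 and 1.60 after knockout. It was 1.64-fold lower (-0.71 ± 0.060, adjusted p = 0.164; 0.00141 with the prior that follows the signal and 0.0465 with normexp correction), and its other probe above background on all arrays differed by -0.85. Slc16a3, the lactate exporter of glycolytic cells, read 2.42 and 2.33 on the control arrays against 1.68 and 2.01 after knockout, 1.44-fold lower (adjusted p = 0.355), and its other probe differed by -0.54. Slc16a12 was 1.24-fold lower at a dim signal.

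Slc16a1, the widely expressed lactate carrier, differed by -0.0025 ± 0.14. Over the 13 Slc16 genes the median was -0.0025, with 4 higher and 3 lower without overlap and 6 overlapping, near the shares over all features (21.2% higher, 26.7% lower). At an unadjusted p under 0.05 in limma, 3 of the 13 Slc16 and 3 of the 39 Slc25 genes were lower, beside 5.63% of all features. No other family of at least 5 members held 3 such genes, though the families differ in size.

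**Figure D2:**
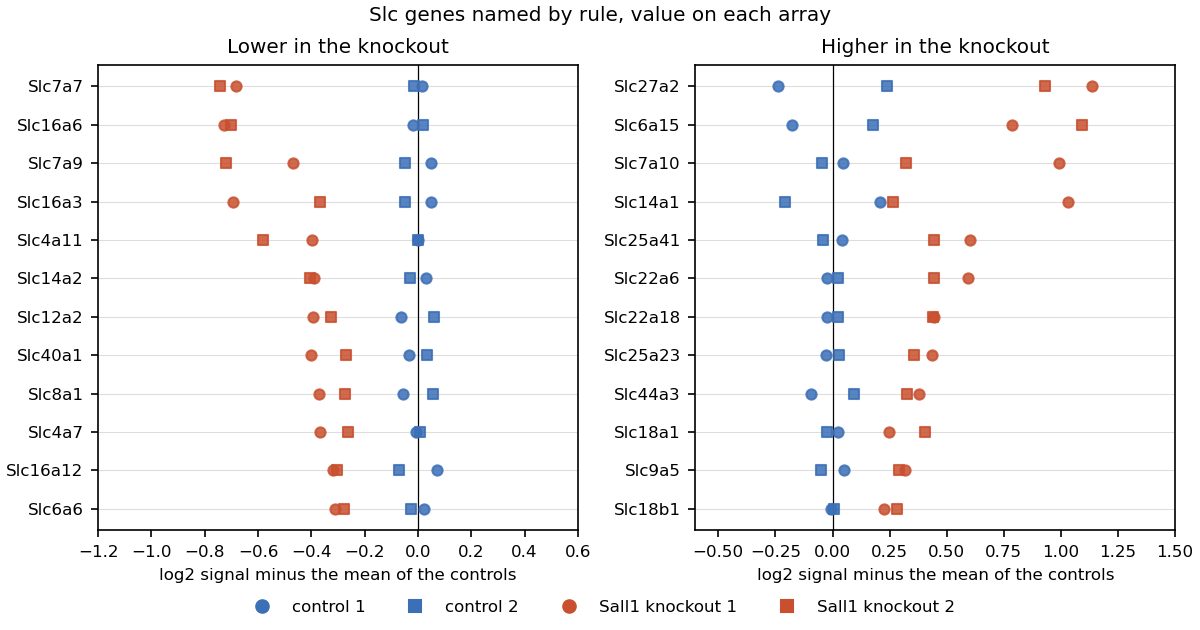
Log2 signal on each array, minus the mean of the 2 control arrays, for the 12 Slc genes named in each direction; circles and squares are replicates 1 and 2, blue the control and red the knockout. Slc7a7 and Slc16a6 lie near -0.71 with both knockout arrays close together, whereas Slc7a10 and Slc14a1 on the higher side rest mainly on Sall1 knockout replicate 1.

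Carriers of organic ions and fatty acids included several that were higher without overlap. Slc27a2, a very long chain fatty acid transporter and acyl-CoA synthetase of kidney and liver, read -3.34 and -2.86 on the control arrays against -1.96 and -2.17 after knockout, 2.05-fold higher (1.03 ± 0.20, adjusted p = 0.295). It was the only one of the 6 Slc27 genes to differ by 1.5-fold without overlap; Slc27a1, Slc27a3 and Slc27a4, chosen here after their values were seen, differed by 0.065, 0.044 and 0.059. Slc22a6, the basolateral organic anion transporter of the proximal tubule, read -2.92 and -2.87 on the control arrays against -2.31 and -2.45 after knockout, 1.43-fold higher (0.52 ± 0.081, adjusted p = 0.255). Slc22a18, an organic cation carrier that is imprinted, read -1.08 and -1.03 on the control arrays against -0.61 and -0.62 after knockout, 1.36-fold higher (adjusted p = 0.223). Slc47a1, which extrudes organic cations at the brush border, was 1.40-fold higher at signals of 21.7 to 31.4.

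Of the 11 Slc22 genes, 5 were higher and 1 was lower without overlap, with a median of 0.13; over all features 21.2% were higher and 26.7% lower without overlap. Of the 6 Slc27 genes, 3 were higher and 3 overlapped. Slc22a4, a carnitine and ergothioneine carrier, overlapped, since the control arrays read -3.85 and -2.46. Markers of liver and gut, where Slc27a2 is also made, were higher in the same arrays: 9 of 9 were higher without overlap, by a median of 1.80. Their summed signal, in units of the 75th percentile, was 13.8 and 20.1 on the control arrays against 43.5 and 40.1 after knockout, and their part in the Slc27a2 difference was not tested. Slc10a1, the bile acid importer of hepatocytes, read 9.47 and 9.50 on the control arrays against 9.51 and 9.51 after knockout (0.020 ± 0.059), and Slc27a5, of bile acid conjugation, differed by 0.12 ± 0.082. The mean signal of the Slc10a1 probe was 398513, whereas the liver marker Alb read only -2.56 and 0.35 on the control arrays against 1.39 and 1.77 after knockout. Whether the Slc10a1 probe measures this transcript alone was not tested, so its value is not read as that of a liver carrier.

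To show start regions of carriers that were higher and lower, the 250 bases before an annotated start are given for Slc22a6 and Slc27a2 on the higher and Slc7a7 on the lower side, from RefSeq on GRCm38.p6. The windows are chr19:8617746-8617995 (+ strand) for Slc22a6, chr2:126552774-126553023 (+ strand) for Slc27a2 and chr14:54409473-54409722 (- strand) for Slc7a7, where 1 of 5 annotated windows is shown because it alone held a motif searched. Sequences read 5′ to 3′ on the strand of the gene, with matches in capitals.
Slc22a6: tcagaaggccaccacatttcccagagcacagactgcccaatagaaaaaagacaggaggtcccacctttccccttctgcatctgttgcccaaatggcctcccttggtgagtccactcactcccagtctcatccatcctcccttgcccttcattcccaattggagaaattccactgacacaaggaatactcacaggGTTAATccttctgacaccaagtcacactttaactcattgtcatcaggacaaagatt
Slc27a2: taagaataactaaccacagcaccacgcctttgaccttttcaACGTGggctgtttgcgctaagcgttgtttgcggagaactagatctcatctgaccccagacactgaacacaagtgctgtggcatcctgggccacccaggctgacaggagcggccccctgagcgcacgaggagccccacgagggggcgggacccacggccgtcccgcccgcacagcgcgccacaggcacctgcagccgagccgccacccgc
Slc7a7: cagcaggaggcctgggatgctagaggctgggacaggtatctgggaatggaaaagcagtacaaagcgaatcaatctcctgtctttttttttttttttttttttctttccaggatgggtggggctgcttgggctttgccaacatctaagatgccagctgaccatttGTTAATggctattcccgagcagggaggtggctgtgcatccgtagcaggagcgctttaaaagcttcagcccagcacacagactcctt
The motifs searched on both strands were the TATA box TATAAA, the half-site GTTAAT and the full palindromic site of HNF1, CAAAGTCCA for HNF4, and the hypoxia response core ACGTG; the half-site lies within the full site. GTTAAT was found 56 bases before the start of Slc22a6 and 86 bases before that of Slc7a7, 1 gene higher and 1 lower, and ACGTG 209 bases before that of Slc27a2. GTTAAT or its complement occurs in 6.43% of 32851 promoter windows and in 11 of 255 windows of the 193 Slc genes with an entry (4.31%); ACGTG occurs in 16.6% of all windows and 21.2% of those of the Slc genes. The TATA box occurs in 12.4% of all windows and in 17 of those of the Slc genes (6.67%). The full HNF1 site and CAAAGTCCA are rare, in 3 (0.00913%) and 126 (0.384%) of all windows. Neither was found in a window of these Slc genes, which says little in 255 windows. A match is a description of the letters and not of binding. Slc16a6 was looked up by symbol in the same table and is named only.

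Carriers of inorganic ions were found on both sides. Slc12a2, the sodium, potassium and chloride cotransporter of many growing epithelia, read 3.63 and 3.75 on the control arrays against 3.30 and 3.37 after knockout. It was 1.28-fold lower (-0.36 ± 0.077, adjusted p = 0.316; 0.0412 with the prior that follows the signal). Slc4a7, a sodium bicarbonate importer, was 1.24-fold lower (adjusted p = 0.323) and Slc4a11, an ion and water carrier, 1.40-fold lower (adjusted p = 0.276), at -1.86 and -1.86 on the control arrays against -2.26 and -2.44 after knockout. Another probe of Slc4a7 differed by -0.12, less than the -0.31 of the probe used. Slc8a1, the sodium/calcium exchanger, was 1.25-fold lower at signals of 30.6 to 42.6.

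Higher among the ion carriers were Slc26a7, an anion exchanger, by 1.36-fold (adjusted p = 0.370), and Slc9a5, a sodium/proton exchanger, by 1.23-fold (adjusted p = 0.330). Slc9a3r2 was 1.16-fold higher and Slc9a3r1 differed by -0.098 ± 0.13 with overlap. Another probe of Slc9a3r2 differed by 0.076, less than the 0.22 of the probe used. The medians were 0.0067 over 10 Slc4 genes, 0.091 over 7 Slc9 genes, -0.056 over 7 Slc12 genes and 0.069 over 6 Slc26 genes.

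Both urea transporters were measured and differed in opposite directions. Slc14a2, of the renal collecting duct, read -1.94 and -2.01 on the control arrays against -2.36 and -2.38 after knockout, 1.32-fold lower (-0.40 ± 0.062, adjusted p = 0.255). Slc14a1, of erythrocytes and of vessels, read -3.99 and -4.41 on the control arrays against -3.17 and -3.94 after knockout, 1.57-fold higher (adjusted p = 0.502). For Slc14a1 the nearest values of the groups, -3.99 and -3.94, almost met.

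Metal and sugar carriers showed small differences. Slc40a1, the iron exporter ferroportin, read 2.20 and 2.26 on the control arrays against 1.83 and 1.96 after knockout, 1.26-fold lower (adjusted p = 0.335). Slc11a1, a metal carrier of macrophage phagosomes, was 1.33-fold higher (adjusted p = 0.451) and Slc39a4, a zinc importer, 1.31-fold higher (adjusted p = 0.458), both without overlap. The zinc families had medians of -0.048 over 7 Slc30 and 0.025 over 12 Slc39 genes, with Slc30a9 1.14-fold and Slc39a6 1.11-fold lower. Slc2a1, the main glucose importer of embryonic cells, read 3.17 and 3.32 on the control arrays against 2.95 and 3.12 after knockout, 1.15-fold lower (adjusted p = 0.495). Slc2a3, also a glucose importer, differed by 0.017 ± 0.070 with overlap, Slc2a13, an inositol carrier, was 1.20-fold higher, and the median over 8 Slc2 genes was -0.034. Slc5a9, a sodium-coupled sugar carrier, was 1.19-fold higher, and Slc5 had a median of 0.14 over 5 genes.

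The families with the most members act inside the cell and differed little. The 39 Slc25 genes, carriers of the inner mitochondrial membrane, had a median of -0.0042 and a range of -0.30 to 0.52. Without overlap 7 were higher and 12 lower, near the 21.2% and 26.7% of all features, and 20 overlapped. Slc25a41, at signals close to background, was 1.44-fold (adjusted p = 0.265) and Slc25a23 1.32-fold higher (adjusted p = 0.272). Both exchange ATP-Mg for phosphate, and the related carriers Slc25a24 and Slc25a25, chosen after their values were seen, differed by 0.024 ± 0.061 and 0.015 ± 0.059. Slc25a4, the adenine nucleotide translocase of muscle, was lower by -0.079 ± 0.058 without overlap. The 23 Slc35 genes, nucleotide sugar carriers of the Golgi and endoplasmic reticulum and related proteins, had a median of -0.030 and a range of -0.21 for Slc35g1 to 0.20 for Slc35e1, named as its ends. Another probe of Slc35e1 differed by -0.055, in the other direction. Beyond these, Slc18b1, a vesicular polyamine carrier, Slc18a1, the vesicular monoamine carrier of chromaffin cells, and Slc44a3, of the choline-like family, were 1.19-fold, 1.25-fold and 1.28-fold higher.

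Grouped by the site where they are best known, proximal tubule carriers were found on both sides. Of 43 listed, 18 were among the 257 genes, with a median of -0.0051: 6 were higher, 2 lower and 10 overlapped, where 21.2% of all features were higher and 26.7% lower without overlap. The 6 were Slc27a2, Slc22a6, Slc47a1, Slc22a18, Slc6a13 (1.20-fold) and Slc16a9 (1.11-fold), and the 2 were Slc7a7 and Slc7a9. With each array left out in turn, where overlap is less frequent, 7 to 8 were higher and 5 to 6 lower. Carriers that were not detected on all arrays number 25, of which 16 were above background on 0 arrays, among them Slc5a1, Slc6a19, Slc9a3 and Slc22a8. Slc34a1, the sodium phosphate cotransporter, was detected, with overlapping values of -3.27 and -3.91 on the control arrays against -3.75 and -3.87 after knockout. Among the proximal tubule markers outside the Slc class, 7 of 8 were higher without overlap, with a median of 0.53 and a summed signal of 15.5 and 17.4 on the control arrays against 23.2 and 23.1 after knockout. Their part in the carriers' differences was not tested.

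Carriers that feed growing cells, a list made with earlier results known, were lower more often than higher. Of 19 listed and detected, 9 were lower without overlap (background 26.7%), 0 were higher (background 21.2%) and 10 overlapped, with a median of -0.14. The 9 were Slc16a3, Slc12a2, Slc38a1, Slc2a1, Slc7a1, the folate carrier Slc19a1 (1.11-fold), Slc7a6 (1.07-fold), and the mitochondrial carriers Slc25a32 (1.11-fold) and Slc25a1 (1.06-fold). Only the first 3 had an unadjusted p under 0.05, and for Slc19a1 another probe differed by 0.051, in the other direction. For Slc38a1 the other probes differed by -0.067 and -0.030, less than the -0.18 of the probe used. With each array left out in turn, 10 to 13 of the 19 were lower and 1 to 6 higher, the 13 without control replicate 1 and the 6 without control replicate 2. In the same arrays the 6 nephron progenitor markers were lower without overlap, by a median of -0.62, with a summed signal of 74.3 and 74.4 on the control arrays against 41.1 and 45.1 after knockout; their part in the difference was not tested.

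**Figure D3:**
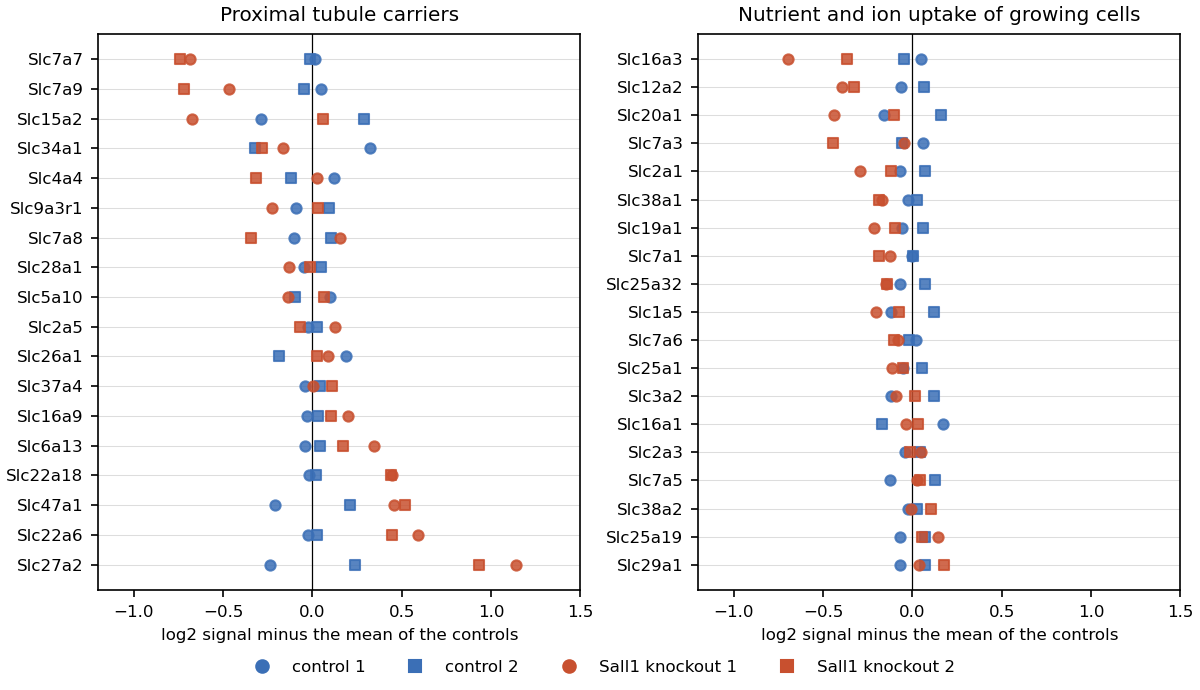
Log2 signal on each array, minus the mean of the 2 control arrays, for the detected carriers of the proximal tubule list (18 genes, left) and of the list for nutrient and ion uptake of growing cells (19 genes, right), with colours for the groups and shapes for the replicates. On the left Slc7a7 and Slc27a2 form the extremes; on the right differences are small, with Slc16a3 the farthest from zero.

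Carriers of other cell types gave smaller groups, to be read against 21.2% of all features higher and 26.7% lower without overlap. Of 7 myeloid carriers, 4 were higher without overlap, Slc11a1, Slc15a3, Slc37a2 and Slc46a3, and 1, Slc2a6, was 1.26-fold lower; 5 of 5 macrophage markers were higher, with a summed signal of 5.46 and 5.16 on the control arrays against 7.76 and 6.68 after knockout, and their part was not tested. For Slc37a2 another probe differed by 0.0053, less than the 0.15 of the probe used. Of 14 neuronal and adrenal carriers, 5 were higher and 2 lower without overlap, with a median of 0.0063, while 4 of 7 neuron markers were lower without overlap and 0 higher. The loop and distal list had 5 detected genes, 2 higher and 2 lower, and neither Slc12a1 nor Slc12a3, its defining cotransporters, was above background on any array. The collecting duct list had 8 detected genes, 1 higher and 4 lower, namely Slc26a7 against Slc14a2, Slc4a11, Slc12a2 and Slc40a1. The lists share genes: Slc12a2 is also on the list for growing cells, Slc40a1 on that for vessels and Slc14a2 on the loop and distal list. Of the 6 ureteric bud markers, 3 were higher and 2 lower without overlap, and their part was not tested. Lists for liver and gut (8 genes, median -0.025), muscle (7 genes, median -0.079) and vessels (9 genes, median -0.0025) had 3, 3 and 2 genes higher and 3, 3 and 3 lower. Skeletal muscle markers were higher without overlap for 7 of 8 genes.

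Some carriers differed more between arrays of 1 group than between the groups. Over the 257 genes, the median absolute difference was 0.10 within the control pair, 0.085 within the knockout pair and 0.12 between the group means. Means of 2 arrays vary less than single arrays, so the last value is not on the scale of the others. More than 2-fold apart were 6 genes between the control arrays (2.33%, background 1.5%) and 3 between the knockout arrays (background 1.03%). Among named genes above background on all 4 arrays, the backgrounds were 1.28% and 0.466%. Slc4a1, the anion exchanger of the erythrocyte membrane, read 1.69 and 3.43 on the control arrays against 2.10 and 3.36 after knockout. Slc25a37, the mitochondrial iron importer of erythroblasts, read 2.50 and 3.67 on the control arrays against 3.06 and 3.76 after knockout, and its other probe differed between the groups by -0.16, in the other direction. Both genes were higher in replicate 2 of each group, where the number is only an order of listing and ties no control to a knockout sample, with no difference between the groups beyond that spread.

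Slc6a20a, a proline carrier chosen here after its values were seen, was also higher in replicate 2 of each group, at 1.16 and 2.96 on the control arrays against 1.54 and 3.34 after knockout. Slc38a5, a glutamine carrier of erythroid precursors, had signals of 179 and 318 on the control arrays and 268 and 357 after knockout, with overlap (0.49 ± 0.39). Of 12 erythroid carriers, 11 overlapped. Over all features 47.9% did not overlap, and 52.7% of named genes above background on all 4 arrays. The median of these carriers, 0.15, was -0.063 without control replicate 1 and 0.32 without control replicate 2. Erythroid markers outside the class were likewise higher in replicate 2, with a median of 1.61 between the control and of 1.06 between the knockout arrays, second minus first, and 6 of 7 overlapping between the groups. Slc27a6, also chosen after its values were seen, was higher in control replicate 2 but in knockout replicate 1: it read -2.95 and -1.60 on the control arrays against -1.59 and -2.84 after knockout. No difference between the groups can be read for these genes from 2 arrays a group.

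**Figure D4:**
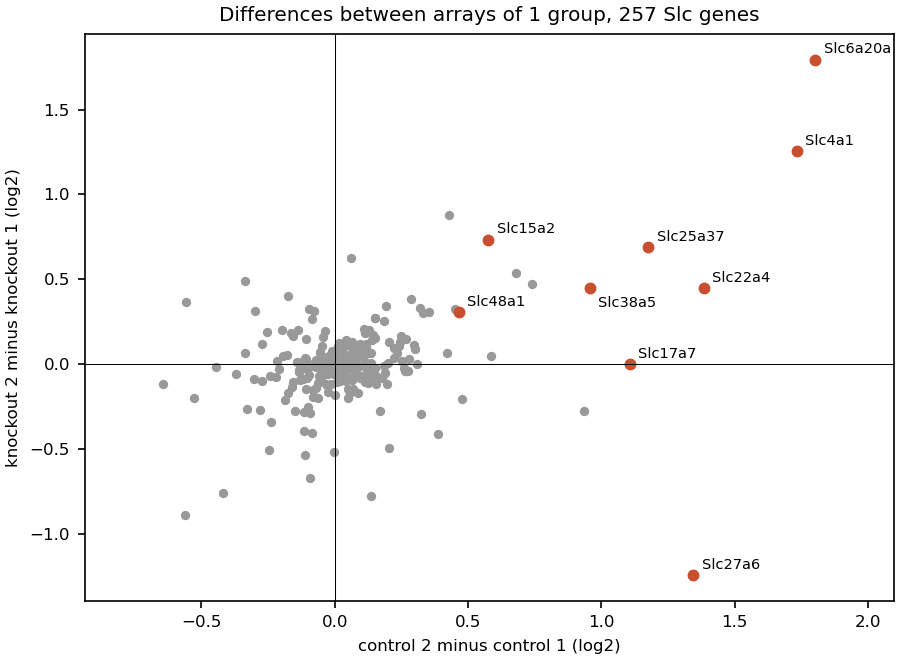
Difference between the 2 knockout arrays (vertical) against that between the 2 control arrays (horizontal), second minus first on the log2 scale, for the 257 Slc genes. Slc6a20a, Slc4a1, Slc25a37 and Slc22a4 lie far to the upper right, Slc27a6 to the lower right, and most genes lie near zero on both axes.

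Partners of the carriers and other transporter classes give the setting. Of 25 partner genes tested, 13 were higher (background 21.2%) and 5 lower (background 26.7%) without overlap, with a median of 0.23. Pdzk1, a scaffold that anchors brush border carriers, was 3.11-fold higher (adjusted p = 0.118), Fxyd4, a regulator of the sodium pump, 2.03-fold higher (adjusted p = 0.205), and Cltrn, a partner of the Slc6 amino acid carriers, 1.84-fold higher (adjusted p = 0.216). Atp1b2, a subunit of the sodium pump, was 1.28-fold higher. Named outside the rule, Bsg, the chaperone of Slc16 carriers, and Ezr were lower without overlap, by -0.059 ± 0.062 and -0.22 ± 0.072. Of 25 organic anion polypeptide and ABC transporter genes tested, 9 were higher and 8 lower without overlap, against the same backgrounds, with a median of 0.015. Slco1c1, Slco2b1 and Abca3 were 1.35-fold, 1.41-fold and 1.26-fold higher and Slco4c1 1.24-fold lower.

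The remaining 114 Slc genes with a probe were not above background on all arrays, 79 of them on 0 arrays. Above background on both knockout and on no control array were 2 genes: Slc36a2, an amino acid carrier, at least 2.09-fold higher (adjusted p = 0.414), and Slc9a2, a sodium/proton exchanger, at least 1.85-fold higher (adjusted p = 0.272). Above background on both control and on no knockout array were 3 genes: Slc5a7, the choline carrier of cholinergic neurons, at least 1.79-fold lower in the knockout (adjusted p = 0.310), Slc25a43, at least 1.12-fold lower, and Slc25a18, at least 1.09-fold lower. Each bound divides the brighter group by a floor, which on each array was the dimmest signal called above background or the measured one if higher. Because these genes were chosen by the group in which they were detected, their direction follows from the choice. Their p-values and bounds are therefore description and no support for a difference. The share of all features detected in only 1 group was not counted. Among the 257 genes, 51 had several probes above background on all arrays, and for 19 of these a probe differed in the other direction from the one used.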

How the data were processed

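Total RNA was labelled with Cy3 from 0.25 µg and hybridised to 4 arrays, per the labels' protocols. The deposited files are scanner output of Agilent Feature Extraction 10.7.3.1 on an mm9 design, per the file headers. Its processed signal is an intensity corrected for background and spatial trend by the authors' software, with no scaling between arrays. Against these, 100% of the 55249 single-spot rows of the deposited value table agreed within 1%, so its scale is the same intensity (column medians 52.29 and 47.07 in control, 47.76 and 45.79 in knockout samples). Other columns used from the deposited files are flags of 0 or 1. All 4 arrays lay on 1 slide and in 1 scan, so no slide block could be fitted, and their number limits the precision.

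Signals were set to log2 and the log2 of each array's 75th percentile over non-control spots was subtracted. Spots marked as outliers were left out and spots of a probe averaged. A feature entered the test where both replicates of either group were well above background: 15090 genes named through RefSeq accessions (GRCm38.p6 table) and 14533 unnamed probes, each by itself. Limma 3.58.1 in R 4.3.3 was used (lmFit, eBayes, two-sided, 1.79 prior and 2 residual degrees of freedom), with Benjamini-Hochberg adjustment over all features, and tested on simulated data. Standard errors are those of this fit.

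Genes were named by rule: 12 in each direction by fold without overlap, then by unadjusted p; the smallest p of each family with at least 5 members; the lists by site; and 4 genes of each other list. The members and lists were chosen with earlier results of these data known. Alternatives were normexp (on median signals), quantile and median scaling, 2 background filters, the trended robust prior, array weights, marked spots kept, the mean over probes, the deposited table and each array left out. One result is not reported here.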

Additional observations from a re-analysis of the deposited data

How the results depend on the processing

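Of the 75 Slc genes compared under 14 alternatives, 58 kept the direction of their difference in every one, and 17 turned sign in at least 1. The count past an adjusted p of 0.05 on the lower side, 0 in the reported fit, was 1 with normexp background correction and 3 with the trended robust prior; the trended count was 0 on the higher side. At an unadjusted p under 0.05, median centring gave 12 higher, and no background filter gave 11 higher and 12 lower. The cause was not tested. Normexp correction left 1 gene at least 1.5-fold higher without overlap. Median centring moved the median of the Slc genes to -0.035, beside -0.051 over all features. With each array left out in turn, the unadjusted counts ran from 13 to 21 higher and from 9 to 14 lower, with fewer samples in the fit, and the counts at least 1.5-fold apart from 6 to 11 higher. A lone array was then assumed to vary like the other group. Under normexp background correction the sign turned for Slc10a1 (-0.00303), Slc16a1 (0.0614), Slc25a25 (-0.00451) and Slc34a1 (0.00549). Under quantile normalization the sign turned for Slc10a1 (-0.10). Under median centring the sign turned for Slc10a1 (-0.0183), Slc25a24 (-0.0142), Slc25a25 (-0.0238), Slc2a3 (-0.0215) and Slc7a5 (-0.00338). With the mean over probes the sign turned for Slc25a25 (-0.0249) and Slc7a5 (-0.0141). Under the deposited value table the sign turned for Slc16a1 (0.00210). Leaving out each array in turn turned the sign within these ranges of the log2 difference: Slc16a1 (-0.17 to 0.17), Slc22a4 (-0.41 to 0.97), Slc25a24 (-0.00157 to 0.0502), Slc25a37 (-0.26 to 0.91), Slc27a3 (-0.00837 to 0.0963), Slc27a6 (-0.61 to 0.73), Slc2a3 (-0.0267 to 0.0607), Slc34a1 (-0.54 to 0.10), Slc38a2 (-0.00804 to 0.10), Slc3a2 (-0.16 to 0.0823), Slc4a1 (-0.70 to 1.04), Slc6a20a (-0.52 to 1.28), Slc7a5 (-0.0918 to 0.16), Slc7a6os (-0.0899 to 0.0111) and Slc9a3r1 (-0.23 to 0.0292). No paired analysis was possible because the labels give the groups no shared replicate numbers; replicates 1 and 2 are an order of listing. The slide as a block was not run, since all arrays share 1 slide. Signals of Slc6a15, Slc7a10, Slc14a1 and Slc25a41 were close to background.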
